A study of Homo sapiens with 2 samples.

Results

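Small nucleolar RNAs (snoRNAs) and the related small Cajal body RNAs (scaRNAs) were examined in a map of RNA contacts of SF3B1, a U2 snRNP protein that helps to hold the branch point of introns. The members are the deposited peak intervals whose midpoint lies in the RefSeq span of a gene with a symbol starting SNORD, SNORA or SCARNA, pseudogenes left out, whichever gene the deposited list names. The rule found 40 of the 1406 distinct intervals (2.84%), and each lay in a gene of its own. The data are 1 group of 2 biological replicates of MDA-231-LM2, a lung-metastatic derivative of the MDA-MB-231 breast cancer line, with no genetic change or treatment named in the labels. RNA was crosslinked to protein by ultraviolet light, recovered with an antibody against endogenous SF3B1 and sequenced as short tags (HITS-CLIP). The extraction text in the labels names SNRBP2 as the protein instead, and which is right was not tested. The authors pooled both replicates before calling peaks, and no control or input sample was analysed, so values below have no replicate error, no depth per library and no test between conditions.

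SnoRNAs guide chemical changes in other RNAs by base pairing. C/D box snoRNAs (SNORD genes) carry the short motifs called boxes C and D near their ends and bind fibrillarin, NOP56, NOP58 and SNU13, and most direct 2′-O-methylation of rRNA. H/ACA box snoRNAs (SNORA genes) bind dyskerin and its partners and direct pseudouridylation, while scaRNAs (SCARNA genes) reside in Cajal bodies and act mainly on spliceosomal snRNAs. Most human snoRNAs are cut out of introns of a host gene, often a ribosomal protein gene or a noncoding RNA gene: the intron is spliced and debranched, and exonucleases trim it back to the protected snoRNA.

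Of the 40 genes, 2 lay at least partly in a RefSeq sequence window (GRCh38.p14), and their letters are shown because they place the interval against the boxes. In each, capitals mark the bases inside the deposited interval, and the sequence reads 5′ to 3′ on the minus strand. SNORD58B, in RPL17, is complete, at chr18:49491664-49491729. The first 30 bases of SNORD121B, in UBAP2, lie at chr9:33934346-33934375.
SNORD58B: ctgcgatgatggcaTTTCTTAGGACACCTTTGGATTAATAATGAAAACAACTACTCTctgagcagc
SNORD121B: tggaaaagacaatgatGTTTTATTTCCAAG
The complete C box letters searched, TGATGA, were in neither. Its first 5 letters, TGATG, stood at bases 7 to 11 of SNORD58B, ahead of the interval, and at bases 13 to 17 of SNORD121B, whose interval begins at base 17. The D box letters CTGA stood at bases 58 to 61 of SNORD58B, directly after the interval, which ends at base 57. Over the first 66 bases of all 35116 promoter windows, TGATG was found in 4.6% on the shown strand and in 8.7% on either strand; CTGA was found in 25.3% and 44.7%. Over the first 30 bases TGATG was found in 2.1% and 4.0%. These letter matches are descriptions and show no protein contact.

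C/D box snoRNAs made up nearly the whole set. Of 357 SNORD genes, 36 held an interval, 10.1% (exact Clopper-Pearson 95% interval 7.16 to 13.7). Of 182 SNORA genes, only SNORA26 did, 0.549% (0.0139 to 3.02), and of 29 SCARNA genes, 3 did, 10.3% (2.19 to 27.4). The intervals of the SNORD and SNORA shares do not overlap; those of the SCARNA share overlap both. For all 568 genes the share was 7.04%, against 0.428% of the 3270 other noncoding RNA genes of at most 500 nt, 5.47% of protein-coding genes and 2.17% of all RefSeq genes. These intervals cover counting error and treat genes as independent, which copies of a family are not.

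**Figure D1:**
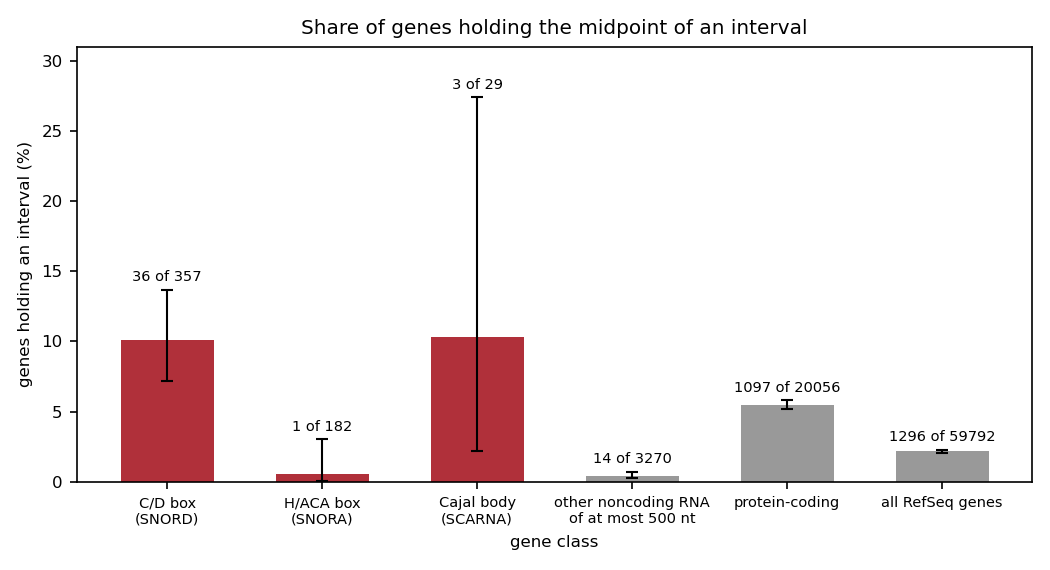
Percent of RefSeq genes (vertical axis) that hold the midpoint of at least 1 deposited interval, by gene class; bars show the share, lines the exact Clopper-Pearson 95% interval, and the numbers the genes with an interval of all genes in the class. The SNORD share of 10.1% stands above the SNORA share of 0.549%, while 3 of 29 SCARNA genes leave a wide interval.

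The SNORD genes without an interval include large tandem arrays. SNORD113, SNORD114, SNORD115 and SNORD116 have 9, 31, 48 and 30 annotated copies, many nearly alike and best known from brain and from imprinted clusters, and none held an interval. Without these copies the SNORD share was 36 of 239 (15.1%, exact 95% interval 10.8 to 20.2). The file's name speaks of unique tags, which may mean tags mapped to a single place or tags with duplicates collapsed. How tags that match several copies were treated is therefore not known, and an empty copy does not show that its RNA had no tags. The amount of each snoRNA in these cells was not measured, so frequent contact and abundant RNA cannot be told apart.

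The 40 intervals ranged from 6 to 50 tags in height, the number of pooled tags at the top of the peak. Their median was 11 tags with quartiles of 8 and 16. The 1366 other intervals had a median of 7 and quartiles of 6 and 10, and lay between 3 and 248 tags. Heights of 20 tags or more were reached by 7 of the 40 (17.5%) against 105 of the others (7.69%). The heights of all other intervals thus span those of the snoRNAs on both sides, and the tallest snoRNA interval ranked 27th in the whole list. The 36 C/D box intervals had a median of 12 tags, whereas the H/ACA box interval and the 3 scaRNA intervals were all of 6 or 7 tags, at the low end.

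**Figure D2:**
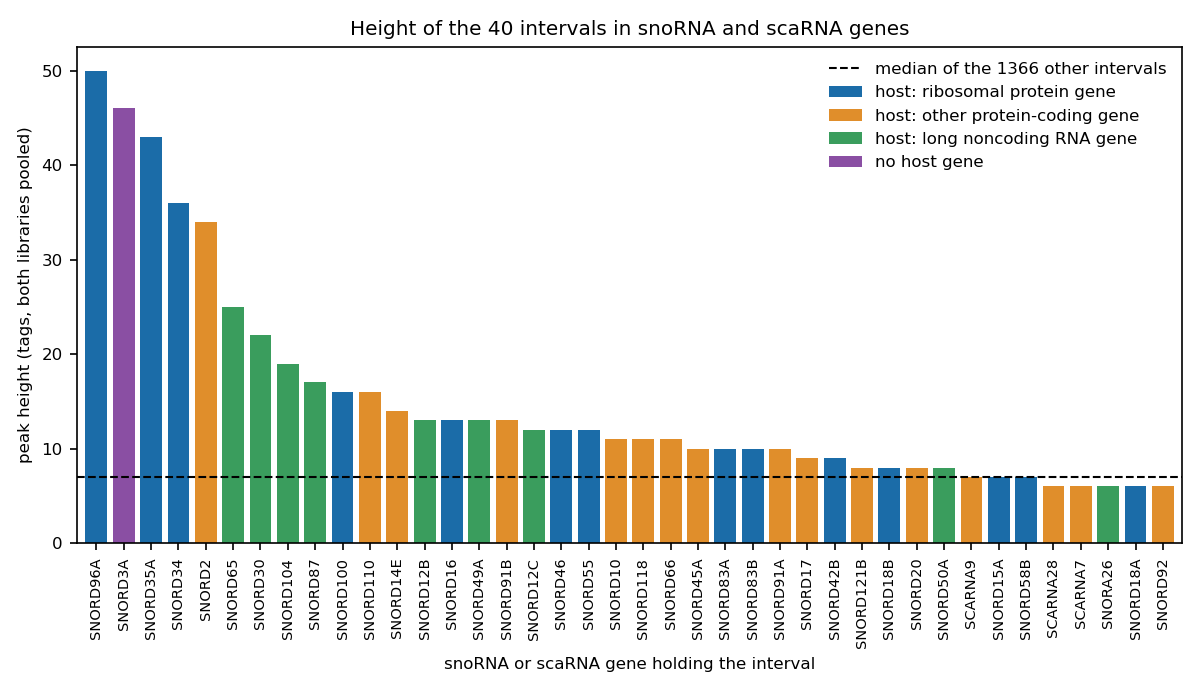
Height in pooled tags (vertical axis) of the interval in each of the 40 genes, in descending order and coloured by the kind of host gene; the dashed line is the median of the 1366 other intervals, 7 tags. A steep head from SNORD96A at 50 tags to SNORD2 at 34 is followed by a long run of genes at 6 to 25 tags.

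The tallest intervals were on rRNA guides and on U3. SNORD96A, which guides methylation of 5.8S rRNA, held 50 tags at chr5:181241847-181241889 (minus strand; hg38, as for all positions), inside RACK1, whose protein sits on the small ribosomal subunit. SNORD3A, a gene of U3, which pairs with the pre-rRNA and is needed for its cleavage rather than its methylation, held 46 tags at chr17:19188087-19188129 (plus strand). The 28S rRNA guides SNORD35A and SNORD34, both in RPL13A, held 43 tags at chr19:49491190-49491232 and 36 tags at chr19:49490911-49490953 (plus strand). SNORD2, a 28S rRNA guide in the translation factor gene EIF4A2, held 34 tags at chr3:186784798-186784840 (plus strand). These 5 genes stood clear of the rest, since the next, SNORD65, held 25.

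Of the next 6 in height, 4 lay in noncoding host genes. SNORD65, an 18S rRNA guide in SNHG29, held 25 tags at chr17:16441223-16441265 (plus strand). SNORD30, a 28S rRNA guide in SNHG1, held 22 at chr11:62853679-62853727 (minus strand), and SNORD104, a 28S rRNA guide in SNHG25, 19 at chr17:64146081-64146123 (plus strand). SNORD87, a 28S rRNA guide in SNHG6, held 17 at chr8:66922495-66922537 (minus strand). SNORD100 in RPS12, at chr6:132816805-132816847, and SNORD110 in NOP56, at chr20:2654212-2654254, shared the tenth place with 16 tags each; both are on the plus strand and guide methylation of 18S rRNA. From SNORD65 down, heights declined in small steps, so the order of neighbours differs by a few tags and has no replicate behind it.

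By the RNA they act on, most members are rRNA guides. The share of each target among all annotated snoRNA and scaRNA genes was not counted, so the counts below describe the members alone. A target was assigned from textbook knowledge to 35 of the 40, of which 30 act on mature rRNA positions, 2 on pre-rRNA processing and 3 on snRNAs. The 20 guides of 28S rRNA, SNORA26 among them, ranged from 6 to 43 tags with a median of 12. The 9 guides of 18S rRNA ranged from 8 to 25 with a median of 13. The 18S range lies wholly within the 28S range, and the tallest guides, SNORD96A for 5.8S rRNA and SNORD35A, SNORD34 and SNORD2 for 28S rRNA, act on RNAs of the large subunit. The difference was not tested.

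Members that guide spliceosomal snRNAs, and a scaRNA with no stated target, held 11 tags or fewer. The share of SCARNA genes with an interval, 3 of 29 (10.3%), was near the 10.1% of SNORD genes. SNORD10, a U6 guide in EIF4A1, held 11 tags at chr17:7576811-7576854 (plus strand). SCARNA9, a U2 guide in CEP295, held 7 tags at chr11:93721677-93721719 (plus strand). SCARNA7, also called U90 and a U1 guide in KPNA4, held 6 at chr3:160515073-160515117 (minus strand). SCARNA28 in TRRAP held 6 at chr7:98881827-98881867 (plus strand), and its target is not stated here. All 4 were at or below the members' median of 11.

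The processing snoRNAs U3 and U8 differed in height. U8 is SNORD118, which is needed for maturation of 5.8S and 28S rRNA; it held 11 tags at chr17:8173486-8173553 (minus strand), an interval of 68 nt and the widest of the set, within the span of TMEM107. SNORD3A, with 46 tags, is more than 4 times as high. Relative to the height that the list expects for the listed gene, the order was the reverse. SNORD3A was at 16.3 times the 2.83 tags expected for SNORD3A itself, and SNORD118 at 47.8 times the 0.23 expected for TMEM107. The difference was not tested. Of the 13 annotated SNORD3 genes SNORD3A alone held an interval, and how tags that match several of these alike copies were placed is not given in the sources used here. None of the 9 SNORD13 genes (U13, which acts on 18S rRNA) and not SNORD22 held an interval. SNORD14E, an 18S rRNA guide in the chaperone gene HSPA8, held 14 tags at chr11:123058118-123058160 (minus strand), the only one of 5 SNORD14 genes with an interval.

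SNORA26, the only H/ACA box member, stood at the edge of the rule. Its 6 tags lay at chr4:52713239-52713280 (plus strand) in DANCR, beginning 10 nt before the annotated 5′ end, with the midpoint 10.5 nt inside. SNORA26 was the member nearest to the limit; SNORD14E and SNORD65 followed, with midpoints 17 and 18 nt inside, and those 3 were the only intervals that crossed an annotated end. Just outside the limit were 2 intervals. An interval of 16 tags at chr17:16439522-16439593 (plus strand) shares 35 nt with SNORD49B, in SNHG29, and its midpoint lies 1.5 nt past the annotated 3′ end. An interval of 12 tags at chr1:244854216-244854257 (minus strand) in HNRNPU shares 2 nt with SNORA100, and its midpoint lies 19.5 nt before the 5′ end.

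Along the RNA, the intervals sat toward the 5′ end. Of the 40, 31 lay in C/D box snoRNAs under 120 nt, which are 66 to 103 nt long. Of these 31, 28 had their midpoint before the middle of the RNA and 29 lay nearer to the 5′ than to the 3′ end. The median interval began 4 nt after the annotated 5′ end (quartiles 0.5 and 13 nt) and stopped 32 nt before the 3′ end. It began within 5 nt of the 5′ end in 18 of the 31, exactly on it in 6 of these (SNORD96A, SNORD110, SNORD16, SNORD49A, SNORD55 and SNORD50A). No interval came within 5 nt of the 3′ end; the closest, in SNORD42B and SNORD58B, stopped 9 nt short. SNORD58B, shown above, is therefore among the members with the interval farthest toward the 3′ end.

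The interval edges follow the authors' bound at a set part of the peak height. The median width was 43 nt, as for the other intervals, and 72.5% of the members were 42 to 44 nt wide against 57.0% of the others. With such a width an interval covers a median of 54.4% of these snoRNAs. The part played by tag length or by the direction of sequencing in the 5′ position was not tested. The 18 intervals that began within 5 nt of the 5′ end had a median of 13.5 tags (6 to 50), and the 13 that began farther in had 10 (6 to 43), ranges that overlap.

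**Figure D3:**
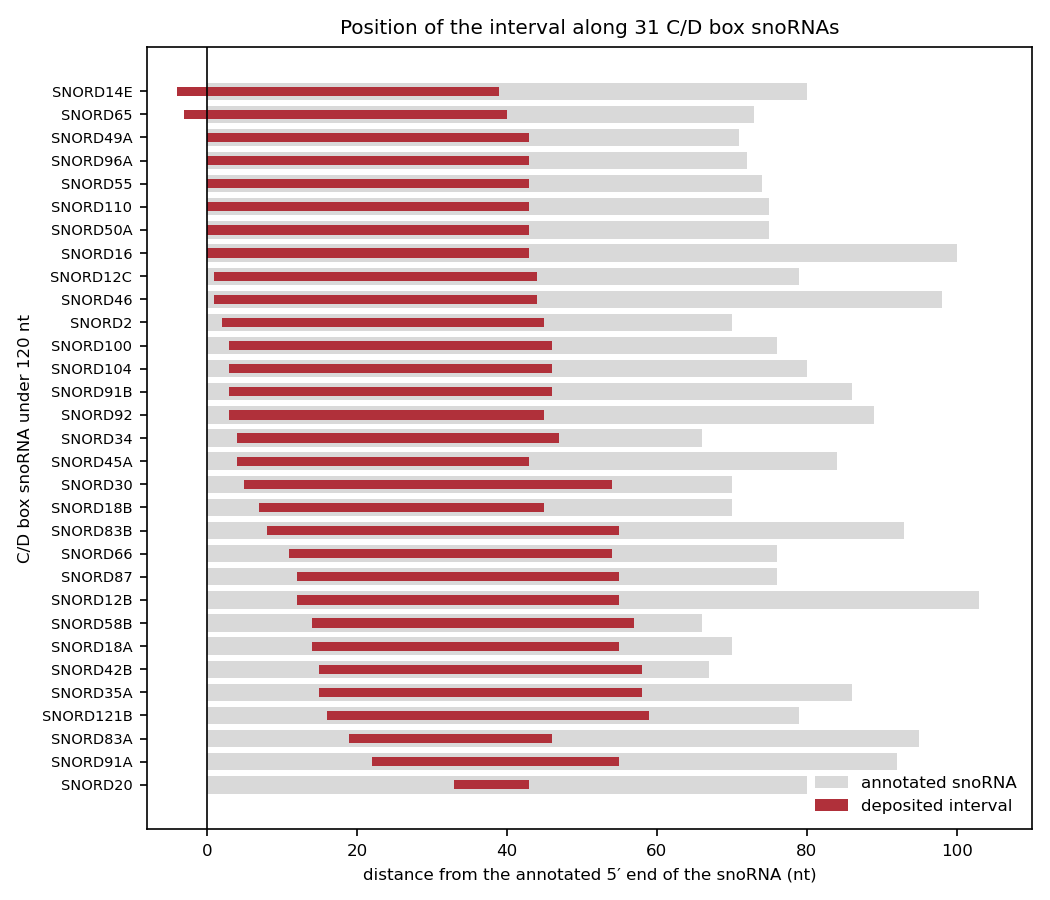
Position of the deposited interval (red) along each of the 31 C/D box snoRNAs under 120 nt (grey, to scale), in nt from the annotated 5′ end, ordered by where the interval begins. Intervals crowd at the 5′ end, from 4 nt before it in SNORD14E to 33 nt after it in SNORD20, and the last 9 nt of every one of these RNAs lie outside the interval.

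In the longer RNAs the position varied. In SNORD10, of 148 nt, the interval covered bases 1 to 44, and in SNORD15A, a 28S rRNA guide in RPS3 also of 148 nt, bases 16 to 58, with 7 tags. In U3 it covered bases 72 to 114 of 217, in U8 bases 36 to 103 of 137, and in SNORD17, a 28S rRNA guide in SNX5, bases 126 to 167 of 237, with 9 tags. SCARNA9 had it at bases 164 to 206 of 353, SCARNA7 at 120 to 164 of 330, and SCARNA28 at 131 to 171 of 194. Of these 9 longer genes, SNORA26 included, 5 had the midpoint before the middle of the RNA.

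SnoRNAs that share a symbol number within 1 host gene had like heights where both were listed. These heights, 6 to 13 tags, lie among those of most members, whose quartiles were 8 and 16. SNORD83A and SNORD83B in RPL3 held 10 tags each. SNORD91A and SNORD91B, 28S rRNA guides in TSR1, held 10 and 13. SNORD18A and SNORD18B, 28S rRNA guides in RPL4, held 6 and 8, while SNORD18C held no interval. SNORD12B and SNORD12C in ZFAS1 held 13 and 12, and SNORD12 none. SNORD12B is a 28S rRNA guide, whereas no target is stated here for SNORD12C, SNORD83A or SNORD83B. Where such snoRNAs are copies that share sequence, they are not independent.

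The remaining members are given by host, apart from the 28S rRNA guides SNORD46 and SNORD55, which held 12 tags each. In ribosomal protein genes these were SNORD16, an 18S rRNA guide in RPL4 (13 tags), SNORD42B, an 18S rRNA guide in RPL23A (9), and SNORD58B, a 28S rRNA guide in RPL17 (7). In noncoding genes they were the 28S rRNA guides SNORD49A in SNHG29 (13) and SNORD50A in SNHG5 (8). In other protein-coding genes they were the 18S rRNA guides SNORD66 in EIF4G1 (11), SNORD45A in RABGGTB (10) and SNORD20 in NCL (8), the 28S rRNA guide SNORD92 in WDR43 (6), and SNORD121B in UBAP2 (8). The interval in SNORD20 was the narrowest of the set, 10 nt.

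Ribosomal protein genes were the hosts with the highest share of listed snoRNAs. With RACK1 counted among them, they span 61 snoRNA and scaRNA genes, of which 14 held an interval (23.0%, exact 95% interval 13.2 to 35.5). Long noncoding RNA genes span 203, of which 9 did (4.43%, 2.05 to 8.25); without the SNORD113 to SNORD116 copies the share was 9 of 85 (10.6%, 4.96 to 19.2). Other protein-coding genes span 277, of which 16 did (5.78%, 3.34 to 9.21). Of the 27 genes in no host gene, only SNORD3A did (3.7%). The intervals for ribosomal protein genes and other protein-coding genes do not overlap, nor do those for ribosomal protein genes and all noncoding hosts. Without the SNORD113 to SNORD116 copies, the interval for noncoding hosts overlaps both others. Heights did not follow the same order: the medians were 11 tags in ribosomal protein genes (6 to 50), 13 in noncoding genes (6 to 25) and 10 in other protein-coding genes (6 to 34).

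The interval lay on the strand of its host in all 32 cases where the host's strand was known. Whether the list assigns genes by strand is not given in the sources used here, so this match may follow from the listing. The deposited list gave the snoRNA itself as the gene for SNORD3A only. Of the other 39 intervals, 38 were listed under the host used here and SNORD58B under RPL17-C18orf32, a readthrough gene that holds RPL17; 3 (SNORD10, SNORD17 and SNORD66) were listed under more than 1 gene. SNORD86 was listed for an interval of 33 tags that lies elsewhere in NOP56, outside its RefSeq span.

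Height rose with the height that the list expects for the listed gene. Across the 39 members listed under another gene, Spearman's rho was 0.77, a description across genes of 1 pooled list. How the list derives the expected height is not given in the sources used here. If it counts the peak's own tags, a positive rho is partly built in, so it is not read as a property of the snoRNAs. Members of 1 host share the expected height, and the list keeps significant peaks only, so low peaks in genes with a high expected height could not be listed. The members were a median of 50 times the expected height (quartiles 19.1 and 82.2), against 167 times for the 1291 other intervals with an expected height above 0. At the low end were SNORD30, 6.2 times the 3.55 tags expected for SNHG1, and SNORD104, 6.8 times the 2.80 expected for SNHG25. SNORD65 stood apart among the tall ones, at 147.1 times the 0.17 tags expected for SNHG29. SNHG1, SNHG25 and SNHG29 span 3908, 340 and 31662 nt, and the part played by host length in these ratios was not tested. SNORD96A was at 75.8 times the 0.66 tags expected for RACK1, against 26.2 and 22.0 times for SNORD35A and SNORD34 in RPL13A.

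**Figure D4:**
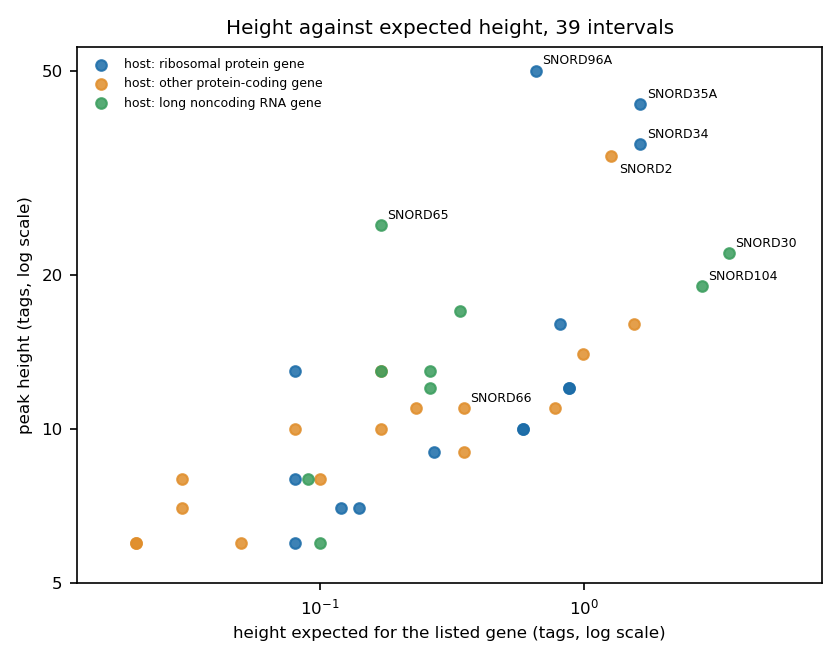
Peak height against the height expected for the listed gene, both in tags on log scales, for the 39 intervals not listed under the snoRNA itself, coloured by kind of host gene; some points coincide. Height rises with expected height (Spearman's rho 0.77), with SNORD96A at 50 tags and SNORD65 at 25 above other members of like expected height. The expected height may count the peak's own tags, so the rise may be partly built in.

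Within the host genes, an interval at a snoRNA was usually the only one. The 39 members with a host lie in 31 host genes, and 19 of these hosts held no interval outside their snoRNAs. The other 12 held 19 intervals outside, all on the strand of the snoRNA, with a median of 12 tags (5 to 97). These hosts were found through their snoRNA interval, so the counts describe them and do not compare snoRNA with host sequence. Over all 295 host genes of any snoRNA or scaRNA, 39 intervals lay at these small genes and 73 elsewhere, on either strand. Whether the latter lie in exons or introns was not analysed here.

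In 4 of the 12 hosts the tallest interval was at a snoRNA, in 4 it was elsewhere and in 4 both were equal. RACK1 held 20 tags at chr5:181237050-181237092, which is 4726 nt from SNORD96A and below its 50. RPL13A held 28 tags at chr19:49490190-49490232, 143 nt from SNORD32A, which itself held none, below the 43 and 36 tags of its 2 listed snoRNAs. In SNHG29, 25 tags at SNORD65 stood above the 16 of the interval beside SNORD49B, and in ZFAS1, 13 at SNORD12B above 10 at chr20:49288990-49289032.

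The reverse held in SNX5, NOP56, EIF4A1 and RPS3. SNX5, a sorting nexin, held 97 tags at chr20:17947385-17947431 and 14 at chr20:17943191-17943233, which are 15279 and 19477 nt from SNORD17 and its 9 tags. NOP56, a core protein of C/D box snoRNPs, held 33 tags at chr20:2657872-2657920, 15 at chr20:2654879-2654925 and 14 at chr20:2655888-2655928, beside the 16 of SNORD110. EIF4A1 held 12 and 10 tags outside against 11 at SNORD10. By position the interval of 10 tags lies in EIF4A1, but the deposited list names SENP3-EIF4A1 and CD68 for it. RPS3 held 9 tags at chr11:75404619-75404663, 53 nt from SNORD15B, against 7 at SNORD15A. With no replicate error known, gaps of 1 or 2 tags are not read as differences.

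Equal heights were found in SNHG1, SNHG5, EIF4G1 and TRRAP. SNHG1 held 22 tags at SNORD30 and 22 at chr11:62853112-62853156, 77 nt from SNORD22. SNHG5 held 8 at SNORD50A, and 8 and 7 outside. EIF4G1, a scaffold of translation initiation, held 11 at SNORD66, and 11 and 6 outside. By position the interval of 6 tags lies in EIF4G1, but the deposited list names EIF2B5 alone for it. TRRAP held 6 at SCARNA28, and 6 and 5 outside. Of the 19 outside intervals, 3 lay within 100 nt of an annotated snoRNA gene, those next to SNORD49B, SNORD15B and SNORD22.

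**Figure D5:**
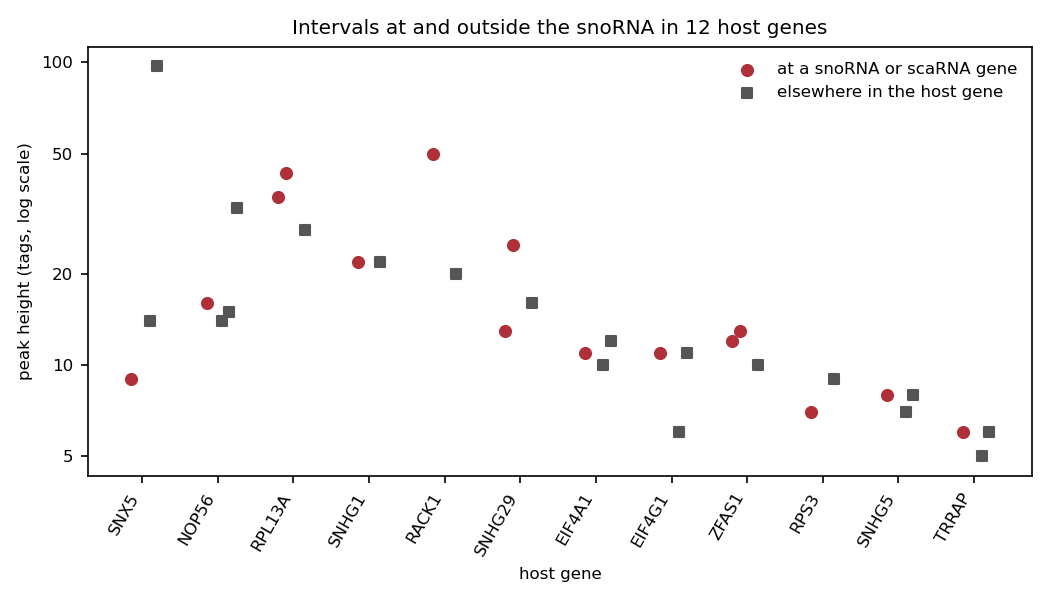
Heights (log scale, pooled tags) of the intervals at snoRNA or scaRNA genes (red circles) and elsewhere in the same gene (grey squares) for the 12 host genes with both. The highest square, 97 tags in SNX5, stands over the 9 tags of SNORD17, whereas in RACK1 the 50 tags of SNORD96A stand over 20 outside.

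Hosts with several snoRNA genes rarely had an interval at all of them. The 31 hosts span 84 snoRNA or scaRNA genes, 71 SNORD, 10 SNORA and 3 SCARNA. An interval lay in 35 of the 71 SNORD, 1 of the 10 SNORA and all 3 SCARNA genes, counts that the choice of hosts raises. Of 22 hosts with more than 1 such gene, TSR1 alone had an interval at each, 2 of 2. RPL4 had 3 of 4, RPL13A and RPL3 had 2 of 4 each, and SNHG29 and ZFAS1 had 2 of 3 each. SNHG1 had 1 of 8.

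EIF4A1, EIF4A2, NCL, NOP56 and RPS12 carry both classes, 10 SNORD and 9 SNORA genes together, and an interval lay at 5 of the SNORD and none of the SNORA genes. These hosts were picked by holding a member, and each holds 1, so the total of 5 follows from the choice, and the difference between the classes in these hosts was not tested. In EIF4A2, SNORD2 held 34 tags and its 4 SNORA genes held no interval. In NOP56, SNORD110 held 16 tags, and SNORD56, SNORD57, SNORD86 and SNORA51 none. In EIF4A1, SNORD10 held 11 and neither SNORA48 nor SNORA67 any. GAS5, a noncoding host of 11 snoRNA genes, held no interval at any of them.

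Genes of the proteins that build and use snoRNPs were counted from a list of 38. Of these, 6 held an interval (15.8%), against 5.47% of protein-coding genes. NCL is among the 6 only through its interval at SNORD20, a member, and the other 5 held an interval outside a snoRNA. Transcript levels were not known, and no test was made. Among the C/D box core proteins, NOP56 held 4 intervals as above, and FBL, NOP58 and SNU13 none. Among the H/ACA core proteins, DKC1, NHP2, NOP10 and GAR1 held none. Of 12 assembly factors, the chaperone gene HSP90AA1 held 8 tags and RUVBL1, an ATPase of snoRNP assembly, 4. Of 7 genes acting with U3, DHX37, the helicase that releases U3, held 15 and 9 tags. The nucleolar protein genes NCL and NPM1 held 8 tags, at SNORD20, and 10 and 9 tags. The 7 genes of Cajal bodies and trafficking and the 2 of intron coupling and debranching, AQR and DBR1, held none.

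A list of 26 genes, long noncoding RNAs but for a few such as TAF1D and most of them snoRNA hosts, was also counted. Of these, 25 matched RefSeq and 9 held an interval (36.0%). EP400P1 and RMST span no snoRNA or scaRNA gene in RefSeq, and DANCR, the host of SNORA26, is not on the list. The 36.0% is thus not a share of snoRNA host genes alone. Of all 295 snoRNA host genes 72 held an interval (24.4%), and of all RefSeq genes 2.17%. Both host counts include genes whose only interval is a member, and the difference was not tested. In 6 of the 9 (SNHG1, SNHG5, SNHG6, SNHG25, SNHG29 and ZFAS1) an interval lay at a snoRNA. In 7 an interval lay outside a snoRNA, and SNHG4 (8 tags), SNHG16 (7) and TAF1D (15 and 7) had such intervals alone.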

How the data were processed

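HITS-CLIP tags of 2 libraries in 1 group were pooled by the authors, who deposited 1 peak list. The deposited signal is the peak height in tags at the top, not normalized; a text field of other values adds the listed gene's number, its expected height and the peak's p-value. BWA 0.7.17, cutadapt 2.3 and hg38 are named, per the submitters' processing notes; the caller and its threshold are not given in the sources used here. Per the file's name, tags were unique, in a sense not stated, and significant peaks were kept.

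Rows with the same position and strand were counted once (1587 rows, 1406 intervals). Genes came from the RefSeq table of GRCh38.p14, which has spans without strand or exons; 5′ and 3′ ends were taken from the strand of the interval. The host is the smallest other gene spanning the snoRNA. Where rows of an interval differ, the expected height is that of the host. Sequences are RefSeq's promoter windows, 250 bases before to 50 after a gene's start. Named genes are all members, with the 10 tallest and special classes singly, hosts with outside intervals and list genes with an interval. Members and lists were chosen with earlier results of these data known. Some items are not reported here. Assignment was checked on planted intervals. Alternatives were other overlap rules, taller intervals, merging within 50 nt, 1 interval per gene, mean heights and listed gene numbers. Tools were pandas 2.3.3, numpy 2.4.6, matplotlib 3.10.9 and scipy 1.17.1 under Python 3.11.15.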

Additional observations from a re-analysis of the deposited data

How the results depend on the processing

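Assigned by the deposited gene numbers in place of position, 2 intervals rather than 40 belonged to snoRNA genes, SNORD3A and SNORD86, since the list names the host gene for nearly all others. With any overlap of 1 nt there were 42 intervals, with the whole interval inside the gene 37, among intervals above the list's median height 32, and merged within 50 nt 40. The SNORD genes holding an interval numbered 32 to 37, the median height 11 to 12.5 tags, and the host intervals outside 14 to 20. Among the intervals above the list's median height, the median was 12.5 tags for members against 11 for the others. The mean log2 height of members exceeded that of the others by 0.58, and the median by 0.65.

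No paired analysis was possible because the list pools both replicates of a single group, and leaving out a replicate was not run for the same reason. Depth per library is unknown, and heights of a few tags limit the order of members.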

Other observations

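Of the 264 other host genes of snoRNAs, 41 (15.5%) held intervals, all outside these small genes, against 5.47% of protein-coding genes and 2.17% of all RefSeq genes, with a median of 8 tags for the tallest of each (4 to 24). Gene length and transcript level were not matched in this contrast, and the difference was not tested. The 41 hosts, from 2769 nt (RPS2) to 703987 nt (NALF1) long, span 32 SNORA and 22 SNORD genes. The tallest intervals were in RPLP2, the host of SNORA52, with 24 tags, and in NSD2, TAF1D and UBAP2L with 15 each. RPL10, the host of SNORA70, held 4 intervals of up to 13 tags. TAF1D carries 6 SNORA and 2 SNORD genes, none with an interval.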
